A study of Mus musculus with 18 samples.

Results

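Matrix metalloproteinases are zinc-dependent proteases that cut the proteins of the extracellular matrix and many secreted or membrane-bound proteins. The account follows 10 of their genes, Mmp2, Mmp3, Mmp8, Mmp9, Mmp10, Mmp11, Mmp13, Mmp14, Mmp19 and Mmp23, picked by name among the 55401 gene identifiers of the count tables. The other 13 mouse Mmp genes served for comparison. RNA counts came from 18 libraries, 3 in each of 6 groups, made from gp38+ (podoplanin-bearing) stromal cells obtained by flow sorting of salivary gland tissue of wild-type Balb/c mice aged 8 to 12 weeks. Animals of the infected groups had received a replication-defective adenovirus 5 (Ad5) through the duct of the submandibular gland, a procedure used to induce ectopic lymphoid structures. Their glands were taken at hour 3 (replicates 4 to 6), day 1 (13 to 15), day 2 (16 to 18), day 8 (1 to 3) and day 23 (7 to 9), and uninfected glands were taken at hour 0 (10 to 12).

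Each library is labelled with a mouse of its own. No group was cannulated without virus, so virus and procedure cannot be told apart in any comparison with hour 0. Of 10 fibroblast markers, all had counts in every group, with a summed level of 11140 to 44680 CPM (counts scaled to a common library size), but Pdpn, which encodes gp38 itself, was used for the sort. Markers of gland epithelium were also abundant, at 31050 to 228300 CPM outside day 1 (2553 to 3376 CPM) and day 2 (370.3 to 1253 CPM). In such bulk samples, fewer cells of a type and less RNA per cell cannot be told apart. Depth ran from 4398234 to 15234431 counts per library. The mitochondrial share of counts was 5.62% to 7.32% at hour 0, 6.16% to 8.99% at hour 3, 3.11% to 4.38% at day 1, 5.26% to 6.21% at day 2, 12.8% to 15.9% at day 8 and 7.67% to 11.2% at day 23, and its part in the results was not tested. Counts on 1502 sensory receptor genes, which stroma is not known to use, were 0.0116 to 0.0854 per kb of exon at hour 3, day 8 and day 23, against 0.565 to 2.01 at hour 0, day 1 and day 2. Scaled to 10000000 counts per library they were 1.08 to 1.75 at hour 0, 0.532 to 1.09 at day 1 and 2.96 to 3.18 at day 2, so the level also differed between groups of 1 set. The first-named groups hold replicates 1 to 9 and the last-named hold replicates 10 to 18, so this set of libraries and time cannot be told apart when hour 3, day 8 or day 23 is compared with hour 0. Comparisons inside a set are day 1 and day 2 with hour 0, day 2 with day 1, day 8 and day 23 with hour 3, and day 23 with day 8.

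Most metalloproteinases are secreted as inactive precursors and are switched on by removal of a propeptide, by other proteases or by furin inside the cell, while TIMP proteins block the active enzymes. Stromelysins (Mmp3, Mmp10) have broad substrates and activate other precursors, collagenases (Mmp8, Mmp13) cut fibrillar collagen, and gelatinases (Mmp2, Mmp9) degrade denatured collagen and basement membrane. In fibroblasts Mmp3 and Mmp13 are known as targets of inflammatory cytokines through AP-1 transcription factors, which are dimers of Fos and Jun proteins, whereas Mmp2 and Mmp14 are known as genes with a steady basal output.

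A single stretch of chromosome 9 (chr9:7272514-7699585, 427 kb, GRCm38) holds 10 of the genes in the order Mmp13, Mmp12, Mmp1b, Mmp3, Mmp1a, Mmp10, Mmp8, Mmp27, Mmp20 and Mmp7, and 4 of them are among those followed here. Promoters from RefSeq (GRCm38.p6, 300 bases, 250 before to 50 after each listed start) were found for 7 of the 10 genes followed, and not for Mmp2, Mmp9 and Mmp19. The sequences below show 120 bases each (100 before to 20 after the start, 5′ to 3′ on the gene's strand). The first 4 belong to the genes of the stretch that rose at hour 3, Mmp8 is their neighbour without a rise there, and Mmp14 lies on another chromosome. Capitals mark the AP-1 motif TGANTCA and, on the gene's own strand only, the TATA box TATAAA. Mmp8 has a TATA box match on the opposite strand, which reads TTTATA from 3 bases before the start and is left in lower case.
Mmp13, chr9:7272414-7272533, + strand: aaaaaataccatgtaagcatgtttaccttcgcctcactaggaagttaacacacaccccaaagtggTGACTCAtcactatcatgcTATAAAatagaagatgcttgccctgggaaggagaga
Mmp12 (its second listed start), chr9:7347274-7347393, + strand: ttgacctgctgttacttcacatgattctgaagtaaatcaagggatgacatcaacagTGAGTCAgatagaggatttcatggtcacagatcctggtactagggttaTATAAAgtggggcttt
Mmp3, chr9:7445722-7445841, + strand: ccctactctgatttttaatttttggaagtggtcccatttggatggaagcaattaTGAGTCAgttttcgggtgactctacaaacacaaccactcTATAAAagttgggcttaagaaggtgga
Mmp10, chr9:7502242-7502361, + strand: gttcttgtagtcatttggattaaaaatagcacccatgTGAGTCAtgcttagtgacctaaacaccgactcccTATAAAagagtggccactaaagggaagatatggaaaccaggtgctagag
Mmp8, chr9:7558329-7558448, + strand: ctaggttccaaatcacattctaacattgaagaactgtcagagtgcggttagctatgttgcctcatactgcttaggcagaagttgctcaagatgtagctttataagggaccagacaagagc
Mmp14, chr14:54431498-54431617, + strand: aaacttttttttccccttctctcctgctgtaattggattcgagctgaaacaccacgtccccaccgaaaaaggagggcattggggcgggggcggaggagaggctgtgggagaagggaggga

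In these windows the AP-1 motif of Mmp3, Mmp10 and Mmp13 starts 46, 63 and 35 bases before the listed start, and a TATA box follows it at 39, 34 and 19 bases. These TATA boxes start 7, 29 and 16 bases before the listed start, and that of Mmp12 starts 4 bases after it. TGANTCA was searched on both strands of the 300 bases. It was present at any listed start for 8 of the 10 genes of the stretch and for 0 of the 8 Mmp genes elsewhere with a promoter. Mmp12 held it only at its second listed start and Mmp7 only at its first. Among all 32851 RefSeq promoters of that length, 7.81% hold it, a share of promoters and not of genes. TATAAA was present on either strand in 13.6% of all promoters, and in 2.14% on the gene's strand at 20 to 45 bases before the start. AGGAAG (an ETS motif) was in 35.4% and the NF-kB motif in 1.63%, the last in 0 of the Mmp promoters. Of the 8 genes of the stretch with the AP-1 motif, 4 rose at hour 3 (16.9% of all genes), 2 fell (43.1%) and 2 passed no test. The fallers, Mmp20 and Mmp7, had 73 and 29 counts at hour 0 and 0 at hour 3, across the different sets of libraries. A part of the motif in these changes was not tested. The AP-1 and TATA matches of these windows do not overlap each other. A match is a description of letters and says nothing about binding.

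Levels were expressed as CPM scaled by TMM (a factor that equalises the bulk of genes between libraries) or, to compare genes, as RPKM, which also divides by exon length. A gene is said to have risen or fallen when its adjusted p was under 0.05 among the 27525 genes tested; all 10 genes passed the filter on low counts. The F test over the 6 groups called all 10, and 83.9% of all genes tested. At hour 3 against hour 0, 7 of the 10 rose (16.9% of all genes) and 1 fell (43.1%), at a median log2 fold change of 1.34 for the 10 and -1.41 for all genes. With library totals 3 rose and 2 fell there. Mmp2, Mmp10, Mmp14 and Mmp19 then passed no test, and Mmp23 was called lower. On day 1 against hour 0, 4 rose (9.67%) and 2 fell (12.8%), with medians of 1.58 and -0.41. By day 2 against hour 0, 3 rose (5.12%) and 3 fell (9.63%), with medians of 1.38 and 0.29; with library totals 6 rose and 1 fell there, and with DESeq2 size factors 4 rose and 1 fell. At day 8 against hour 0, 2 rose (11.2%) and 3 fell (32.7%), with medians of 0.16 and -0.68. At day 23 against hour 0, 0 rose (8.51%; 0 also at library totals, with DESeq2 and with limma-voom, and 0 at an unadjusted p under 0.05) and 3 fell (25.4%), with medians of -0.37 and -0.53. The fallers were Mmp8, Mmp10 and Mmp19, of which Mmp8 and Mmp10 had only 17 and 8 counts over the hour 0 libraries. With each replicate left out in turn, 0 to 3 of the 10 were called there, and with no filter 1 was. These 5 comparisons share the hour 0 libraries. Medians of all genes depended on the filter for low counts. Requiring 5 CPM in 3 libraries left 14147 genes, whose hour 3 median against hour 0 was -0.23. Their day 1 median was -0.04 and their day 2 median 0.0048. Day 8 then gave -0.05, and -0.03 remained by day 23. Of these 14147 genes, 4037 rose and 5292 fell in the hour 3 comparison. Only 8 of the 10 genes passed this filter, of which 6 rose and 1 fell there.

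Between infected groups, day 2 against day 1 gave 1 rise (12%) and 2 falls (11.2%). The contrast of day 8 with hour 3 gave 1 rise (16.5%) and 8 falls (14.1%), and that of day 23 with hour 3 also gave 1 rise (15.7%) and 8 falls (14.3%). Day 23 against day 8 gave 0 rises (2.25%) and 1 fall (3.08%). Scaling bears on these directions. With library totals in place of TMM the median shift of all log2 fold changes against hour 0 was -1.15 for hour 3, 0.09 for day 1 and 0.37 for day 2, with -0.39 for day 8 and -0.44 for day 23. Day 2 against day 1 shifted by 0.27, day 8 against hour 3 by 0.76 and day 23 against hour 3 by 0.70. With DESeq2 size factors it was 0.21 at day 2, -0.13 at day 8 and -0.12 at day 23 against hour 0, and 0.21 for day 2 against day 1. The higher genes were 28.1% of those called at hour 3 by TMM and 7.09% by library totals. The same pair of shares was 34.7% and 66.7% at day 2, 25.5% and 10.3% at day 8, and 25.1% and 6.05% at day 23. Day 2 against day 1 gave 51.8% and 77.9%, day 8 against hour 3 gave 53.9% and 81.9%, and day 23 against hour 3 gave 52.3% and 80.0%. DESeq2 size factors gave 52.7% at day 2 against hour 0 and 71.0% at day 2 against day 1.

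Mmp3 (stromelysin 1, ENSMUSG00000043613, chr9:7445822-7455975) had the largest level of the 10 genes from hour 3 to day 2. In the uninfected libraries it stood at 259, 234 and 194 CPM. Hour 3 libraries held 10146, 6195 and 6599 CPM, day 1 libraries 4922, 1515 and 3715 CPM, and day 2 libraries 1053, 982 and 1803 CPM. The libraries of day 8 held 255, 239 and 229.9 CPM and those of day 23 held 270.0, 204 and 156 CPM. All 9 libraries from hour 3 to day 2 thus lay above all 3 of hour 0, while day 8 and day 23 overlapped hour 0.

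The log2 fold change of Mmp3 against hour 0 was 5.06 ± 0.34 at hour 3 (SE, adjusted p = 7.36e-13), 3.88 ± 0.32 at day 1 (1.27e-10) and 2.48 ± 0.30 at day 2 (3.66e-07). It was 0.08 at day 8 (adjusted p = 0.855) and -0.12 at day 23 (0.767). Between day 2 and day 1 it fell by 1.40 ± 0.29 (adjusted p = 0.00104), although replicate 14 of day 1, at 1515 CPM, lay within the range of day 2. Inside the set of replicates 1 to 9 the change against hour 3 was -4.99 at day 8 and -5.18 at day 23 (adjusted p = 1.42e-12 and 7.44e-13). Under library totals the rise at hour 3 was 3.87, the lowest of its 27 alternatives, and it was called in all 27.

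Mmp10 (stromelysin 2, ENSMUSG00000047562, chr9:7502352-7510240), the close relative of Mmp3, was near the detection limit throughout. It had 2, 4 and 2 counts at hour 0, 22, 17 and 15 at hour 3, 19, 16 and 18 at day 1, and 12, 15 and 16 at day 2. At day 8 there were 0, 4 and 1 counts, and at day 23 all 3 libraries had 0. In CPM it averaged 2.35 ± 0.48 at hour 3 and 0.271 ± 0.159 at hour 0 (SD, n = 3 each), a log2 fold change of 3.09 ± 0.97 (adjusted p = 0.0102). With library totals that call ended (1.92, adjusted p = 0.0824, over a range of 0.000871 to 0.0824 in 26 alternatives). The libraries of day 1 and day 2 also lay wholly above those of hour 0, at 2.37 (adjusted p = 0.0771) and 2.67 (0.0656), and neither passed. DESeq2, limma-voom and subtraction of background called both (adjusted p from 0.0129 to 0.181 over the alternatives of day 1 and from 0.00406 to 0.186 over those of day 2), and library totals called day 2. Per kb of exon, Mmp10 had 8.71 to 12.8 counts at hour 3, where receptor genes had 0.0559 to 0.0854 and the neighbour Mmp20 had 0. At hour 0 it had 1.16 to 2.32, against 1.01 to 1.25 on receptor genes. At day 23 it was at least 16.6-fold lower than at hour 3 and at least 1.82-fold lower than at hour 0 (floor of 3 counts over the group). The difference from hour 0 passed at adjusted p = 0.0477 and did not without any 1 of the replicates other than replicate 2, nor with no filter, DESeq2, limma-voom, subtraction of background or without the day 2 libraries (0.0287 to 0.303 over 25 alternatives).

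Among the collagenases, Mmp13 (collagenase 3, ENSMUSG00000050578, chr9:7272514-7283331) was raised at the same times as Mmp3, at a far lower level and with no fall between day 1 and day 2. Hour 0 libraries held 0, 9 and 0 counts, hour 3 libraries 147, 53 and 65, day 1 libraries 187, 17 and 128, and day 2 libraries 81, 63 and 149. Day 8 libraries held 7, 2 and 6 counts and day 23 libraries 6, 6 and 0. Per kb of exon, Mmp13 had 0 to 3.37 counts at hour 0, where receptor genes had 1.01 to 1.25. At day 8 it had 0.748 to 2.62, where receptor genes had 0.0292 to 0.0331. A return to the uninfected level can therefore not be read from these low counts. Scaled levels averaged 0.340 ± 0.589 CPM at hour 0, 11.5 ± 6.67 CPM at hour 3, 8.70 ± 6.83 CPM at day 1 and 11.7 ± 4.03 CPM at day 2. The libraries of these 3 times lay above every library of hour 0, the closest pair being replicate 14 of day 1 (1.48 CPM) and replicate 11 of hour 0 (1.02 CPM).

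Mmp13 rose by 5.19 ± 0.88 at hour 3 (adjusted p = 2.02e-05), 4.79 ± 0.88 at day 1 (0.0001) and 5.22 ± 0.88 at day 2 (5.21e-05) on the log2 scale. Day 2 against day 1 was at 0.43 and passed no test (adjusted p = 0.622). Day 8 was at 0.40 (adjusted p = 0.781) and day 23 at 0.86 (0.562) against hour 0. All hour 0 counts of Mmp13, 9 in number, came from replicate 11, and the size of the 3 rises rests on them. Without that library the fitted values were 9.82, 9.41 and 9.83, which then depend on the prior count and are no bound. Its day 8 and day 23 values also passed the test as higher without replicate 11 (adjusted p = 0.0427 and 0.0403, over ranges of 0.0427 to 1 and 0.0403 to 0.919). Against hour 3 the change was -4.79 at day 8 (2.95e-05) and -4.33 at day 23 (0.000176).

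Mmp8 (neutrophil collagenase, ENSMUSG00000005800, chr9:7558456-7568485) gave few counts. There were 2, 9 and 6 at hour 0, 7, 12 and 18 at hour 3, 6, 26 and 24 at day 1, and 37, 7 and 16 at day 2, and all 6 libraries of day 8 and day 23 had 0. No rise passed the test: the log2 fold change against hour 0 was 1.49 ± 0.99 at hour 3 (adjusted p = 0.189), 1.41 at day 1 (0.336) and 2.22 at day 2 (0.16), and the groups overlapped hour 0 each time. Mmp8 fell below detection at day 8 and day 23, at least 19.9-fold and 11.4-fold lower than at hour 3 (adjusted p = 0.000572 and 0.00232). Against hour 0 it was at least 6.75-fold lower at day 8 (adjusted p = 0.00754) and at least 3.86-fold lower at day 23 (0.025). That last call ended without replicate 7, 8, 9 or 11 and after subtraction of background (0.0132 to 0.107 over 25 alternatives). Per kb of exon it had 2.89 to 7.42 counts at hour 3 and 0.825 to 3.71 at hour 0. Mmp20, an enamel protease, had 0 at hour 3 and 4.56 to 9.74 at hour 0, and receptor genes had 1.01 to 1.25 at hour 0, so the hour 0 counts of Mmp8 were in the range of genes that stroma is not known to use.

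**Figure D1:**
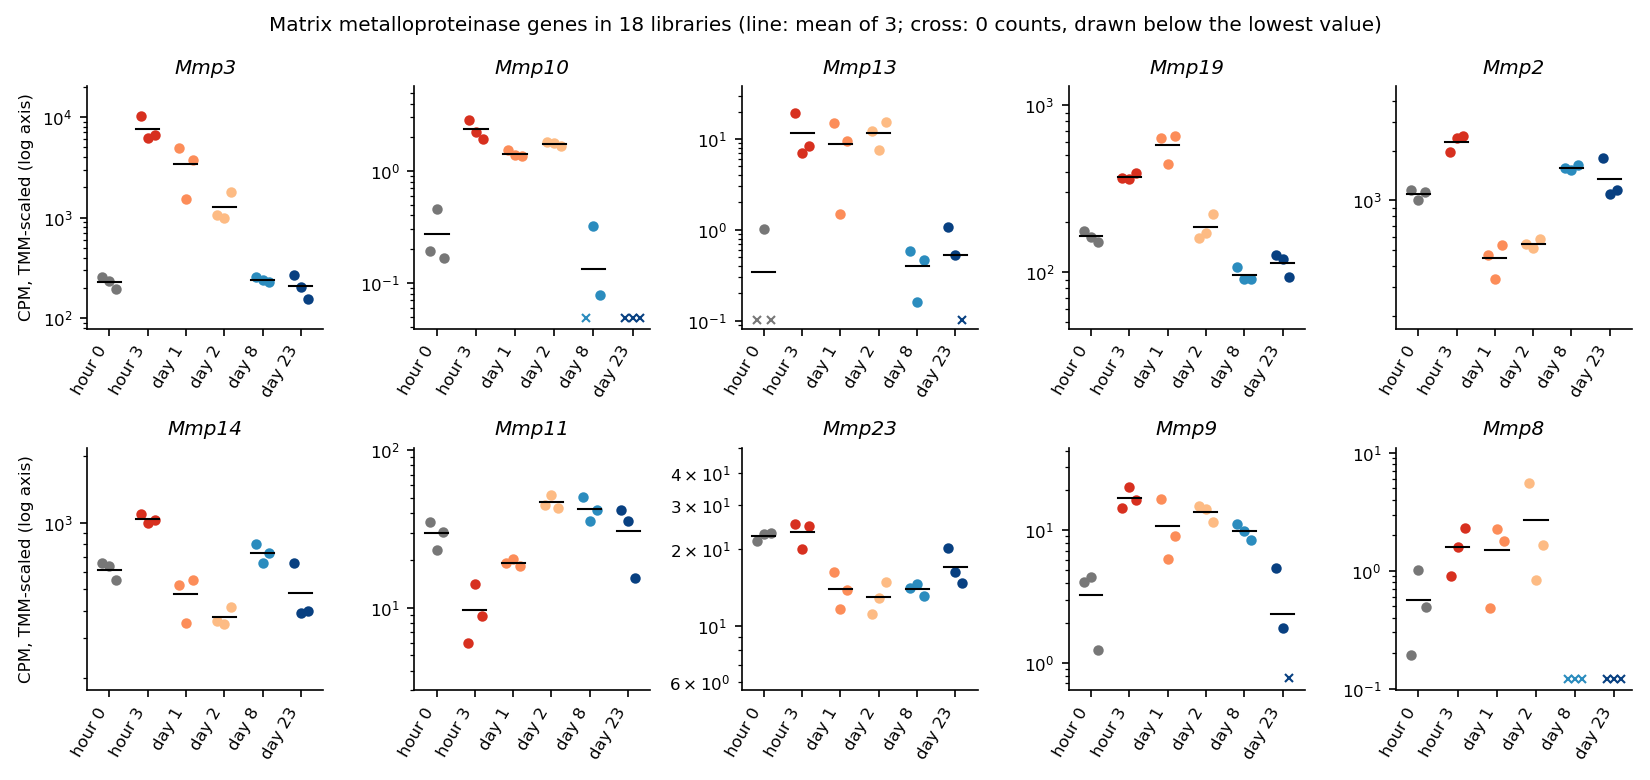
Level of each of the 10 genes in every library (y axis: TMM-scaled CPM, log scale, 1 panel per gene; x axis: time group). Points are libraries, lines are means of 3, and crosses are libraries with 0 counts, drawn below the lowest value. Mmp3 and Mmp13 stand above hour 0 at hour 3, day 1 and day 2, Mmp2 dips at day 1 and day 2, and Mmp11 is lowest at hour 3; the height of hour 3 for Mmp2, Mmp14, Mmp19 and Mmp23 depends on the scaling, since with library totals their log2 fold changes against hour 0 were -0.12, -0.42, 0.01 and -1.13.

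Along the chromosome 9 stretch the raised genes were interspersed with genes that were not. Mmp13, Mmp12, Mmp3 and Mmp10 rose at hour 3. Mmp12 (macrophage elastase), which was not among the 10, had 78.3, 43.6 and 42.6 CPM at hour 3 and 1.35, 0.793 and 0.827 CPM at hour 0, a log2 fold change of 5.77 ± 0.62 (adjusted p = 8.46e-09). It remained higher at day 1 (3.54, adjusted p = 2.85e-05) and day 2 (2.48, adjusted p = 0.0038). The fallers were Mmp20 and Mmp7, both at 0 counts in the 3 libraries of hour 3. They were at least 17.9-fold and 7.12-fold lower there than at hour 0 (adjusted p = 0.000483 and 0.00788), across the different sets of libraries. Mmp12 and Mmp1b share 157 exon bases on opposite strands. In mean RPKM at hour 3, Mmp3 stood at 4246, Mmp12 at 7.58, Mmp13 at 4.30, Mmp10 at 1.36 and Mmp8 at 0.661, so that Mmp3 outweighed its neighbours by orders of magnitude.

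**Figure D2:**
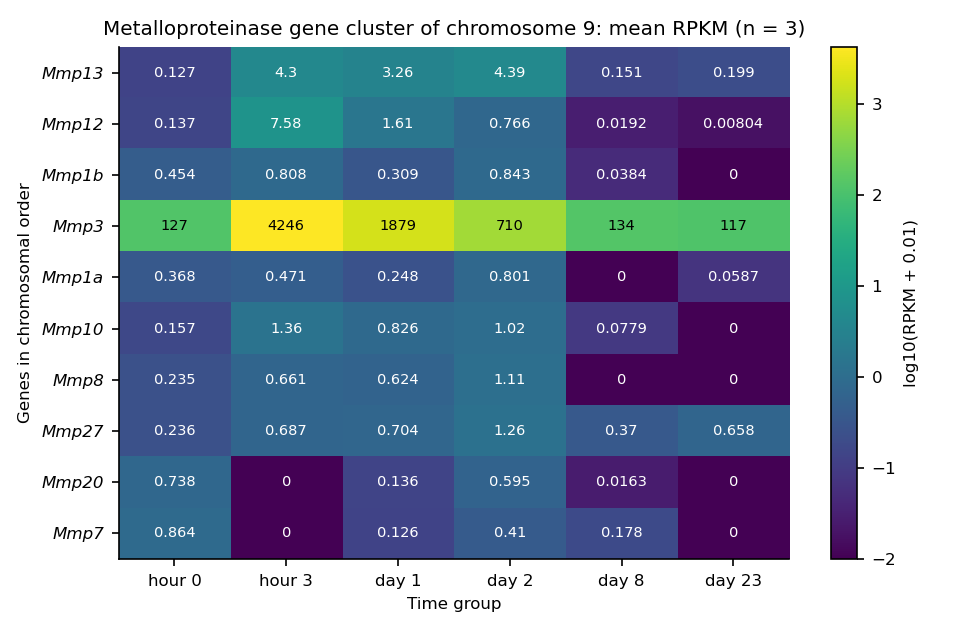
Mean RPKM (n = 3) of the 10 metalloproteinase genes of the chromosome 9 stretch, in chromosomal order from top to bottom, by time group from left to right; colour is log10(RPKM + 0.01). Mmp3 runs from 117 at day 23 to 4246 at hour 3, and Mmp20 and Mmp7 are at 0 at hour 3.

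The gelatinase Mmp2 (gelatinase A, ENSMUSG00000031740, chr8:92827291-92853420) led the family in uninfected cells and took a different course. It had 1154, 1003 and 1127 CPM at hour 0, 1966, 2370.3 and 2463 CPM at hour 3, 469.6, 334 and 538 CPM at day 1, and 542, 517 and 582 CPM at day 2. Day 8 libraries had 1564, 1518 and 1635 CPM and day 23 libraries 1807, 1095 and 1157 CPM. All 6 libraries of day 1 and day 2 lay below all 3 of hour 0. Mmp2 fell by 1.29 ± 0.19 at day 1 (adjusted p = 5.7e-06) and by 1.00 ± 0.19 at day 2 (0.000292) on the log2 scale against hour 0, in every alternative run.

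At hour 3 Mmp2 was higher than at hour 0 by 1.05 ± 0.19 (adjusted p = 5.72e-05), but with library totals the sign turned to -0.12 (0.587; 5.79e-10 to 0.587 over 27 alternatives). At day 8 it was higher by 0.52 ± 0.19 (adjusted p = 0.0296). That call ended in 10 of 27 alternatives (0.000338 to 0.647), among them the fits without replicate 1, 2, 3 or 11. Day 23 was at 0.31 (adjusted p = 0.208). Against hour 3, day 8 was at -0.53 (0.0345) and day 23 at -0.74 (0.00296), while library totals gave 0.25 and 0.00. The day 8 difference was also lost with no filter (-0.43, 0.075; 0.00189 to 0.429 over 28 alternatives) and without replicate 1, 2, 3, 5 or 6.

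Mmp9 (gelatinase B, ENSMUSG00000017737, chr2:164940780-164955850) was a minor transcript. It had 4.06, 4.42 and 1.24 CPM at hour 0, 14.9, 21.1 and 17.0 at hour 3, 17.2, 6.09 and 9.12 at day 1, and 15.2, 14.4 and 11.6 at day 2. It then had 11.1, 9.82 and 8.53 CPM at day 8 and 5.17, 1.83 and 0 CPM at day 23. Every library from hour 3 to day 8 lay above every library of hour 0. Mmp9 rose by 2.46 ± 0.51 at hour 3 (adjusted p = 0.000274), 1.76 at day 1 (0.0109), 2.10 at day 2 (0.00374) and 1.61 at day 8 (0.0137) on the log2 scale. The day 1 call ended without replicate 12 or 13 (0.0671 and 0.105; up to 0.105 over 28 alternatives). The day 8 call ended without replicate 12 (0.0582, the highest of 27 alternatives), with library totals and without the day 2 libraries. At day 23 it was lower than at day 8 by 2.04 ± 0.54 (adjusted p = 0.0227), a call that ended without replicate 2, 8 or 9, without the day 2 libraries and with only those 2 groups fitted (up to 0.154 over 28 alternatives).

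Neutrophils carry Mmp8 and Mmp9 in their granules. The other 11 neutrophil markers summed to 9.58 to 16.5 CPM in hour 0 libraries, 37.8 to 48.3 CPM in those of hour 3 (Ly6g and Elane at 0), 4.93 to 14.6 CPM in day 1, 24.3 to 34.6 CPM in day 2, 7.98 to 15.3 CPM in day 8 (Cxcr2, Mpo and Camp at 0) and 0.237 to 2.68 CPM in day 23 libraries (7 of 11 at 0, Ly6g and Elane among them). Of the 8 that could be tested at hour 3, 4 rose (16.9% of all genes) and 4 fell (43.1%). For macrophages, monocytes and dendritic cells, 12 markers summed to 26.0 to 44.7 CPM at hour 0, between 54.0 and 80.4 CPM at hour 3, between 19.9 and 53.4 CPM over day 1 and day 2, between 155 and 193 CPM at day 8 and between 61.7 and 89.3 CPM at day 23, none of them at 0 in any group. Their part in the values of Mmp8, Mmp9 and Mmp12 was not tested.

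Mmp14 (membrane type 1 metalloproteinase, ENSMUSG00000000957, chr14:54431612-54445364) sits at the cell surface and activates the Mmp2 precursor together with Timp2. Its levels were 657, 636 and 550.0 CPM at hour 0, 1091, 997 and 1028 at hour 3, 523, 351 and 552 at day 1, and 358, 349.9 and 415 at day 2. They were 799, 657 and 729 CPM at day 8 and 658, 392 and 398 CPM at day 23. Hour 3 lay above and day 2 below all libraries of hour 0, and day 1 overlapped it narrowly. Mmp14 was higher at hour 3 than at hour 0 by 0.76 ± 0.19 (adjusted p = 0.00203), and library totals gave -0.42 (0.0681, the highest of 27 alternatives). At day 2 it was lower by 0.71 ± 0.19 (adjusted p = 0.00941), a call that ended with DESeq2 size factors and with library totals (0.0785 and 0.308; 0.000202 to 0.308 over 27 alternatives). Day 1 (-0.37), day 8 (0.25) and day 23 (-0.35) passed no test against hour 0 (adjusted p = 0.178, 0.305 and 0.152), although day 23 passed without replicate 7 (0.0158), with DESeq2 and with library totals (0.0068 to 0.423). Against hour 3, day 23 was lower by 1.11 ± 0.19 (3.79e-05), which library totals ended (-0.36, adjusted p = 0.214). Day 8 was lower than hour 3 by 0.51 (0.0418), and with library totals it was at 0.27; the call also ended without replicate 2, 3, 4, 5, 6, 10 or 11, without the day 2 libraries and with no filter. Day 2 against day 1 was at -0.34 (0.181) and passed without replicate 14 (0.0374; 0.00561 to 0.821 over 27 alternatives). Day 23 against day 8 was at -0.59 (0.0703) and passed without replicate 7 (-0.89, 0.00306) or 14 (0.0303; 0.00277 to 0.287 over 28 alternatives).

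Ratios of genes within a library do not depend on the scaling of libraries. Per exon length, Mmp2 to Mmp14 stood at 3.17 ± 0.42 in uninfected libraries and at 3.87 ± 0.60 by hour 3 (SD, n = 3 each). It was 1.66 ± 0.07 on day 1 and 2.59 ± 0.10 on day 2, then 3.84 ± 0.33 on day 8 and 4.98 ± 0.15 on day 23. The 3 ratios of day 1 were the lowest of the 18, and the 3 of day 23 the highest. Mmp3 to Mmp2 averaged 0.393 in uninfected libraries, 6.52 by hour 3, 13.7 on day 1 and 4.33 on day 2, and was back at 0.288 on day 8 and 0.294 on day 23. In this ratio all 9 libraries of hour 3 to day 2 (3.55 to 19.6) lay above the 9 of the other groups (0.253 to 0.438). Mmp19 to Mmp2 averaged 1.24 ± 0.08 at day 1 and between 0.0586 and 0.321 in the other groups.

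**Figure D3:**
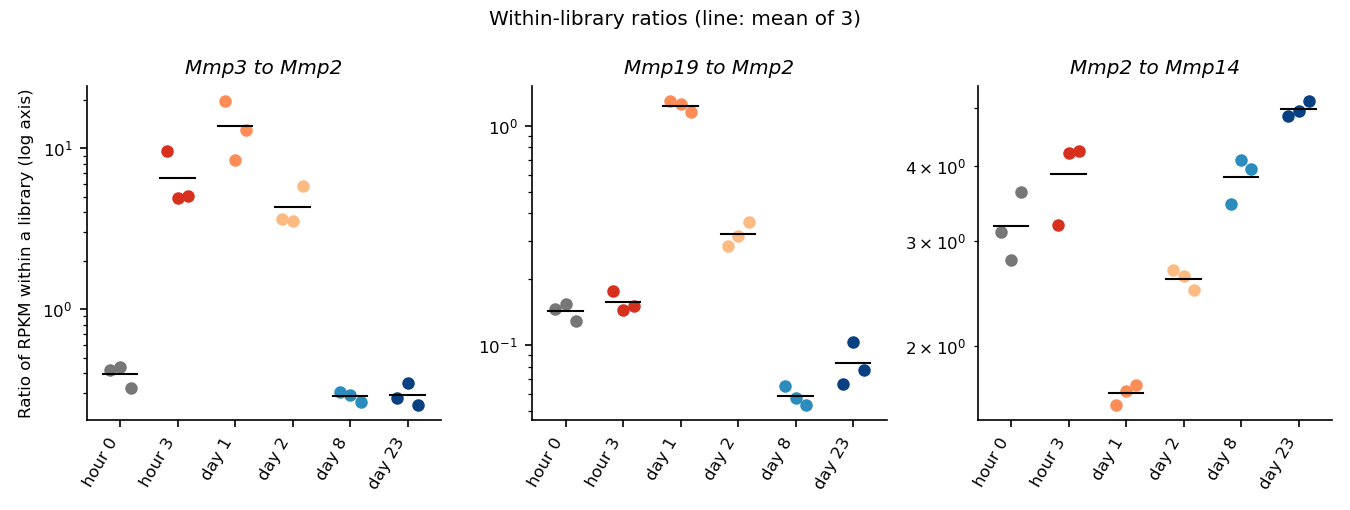
Ratios of RPKM within each library (y axes, log scale) for Mmp3 to Mmp2, Mmp19 to Mmp2 and Mmp2 to Mmp14, by time group (x axis). Points are libraries and lines are means of 3. Day 1 holds the highest mean of the first pair of ratios (13.7 and 1.24) and the lowest of Mmp2 to Mmp14 (1.66).

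Mmp19 (ENSMUSG00000025355, chr10:128790910-128800824), a secreted metalloproteinase that cuts basement membrane proteins, had its highest level at day 1. It had 177, 162 and 152 CPM at hour 0, 365, 361 and 390.3 at hour 3, 639.6, 443 and 652 at day 1, and 161, 171 and 223 at day 2. Lower values of 107, 91.5 and 91.3 CPM followed at day 8 and 127, 119 and 93.5 CPM at day 23. Day 1 stood above all other libraries, and both day 8 and day 23 lay below hour 0 without overlap. The rise at day 1 was 1.82 ± 0.18 on the log2 scale (adjusted p = 3.06e-09, called in all 28 alternatives), and day 2 was lower than day 1 by 1.64 ± 0.18 (2.03e-07). Day 2 against hour 0 was at 0.18 (adjusted p = 0.603), and with library totals it passed at 0.55 (0.0482; up to 0.987 over 27 alternatives).

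At hour 3 Mmp19 was higher than at hour 0 by 1.19 ± 0.18 (adjusted p = 2.62e-06), a difference of which library totals left 0.01 (0.977, the highest of 27 alternatives). At day 8 Mmp19 fell by 0.76 ± 0.17 (0.00178) and at day 23 by 0.53 ± 0.18 (0.0246) against hour 0. The day 23 call ended without replicate 8, 9, 10 or 11 and with no filter (up to 0.118 over 27 alternatives). On the opposite strand, Tmem198b shares 789 exon bases and Gm47093 shares 212 with Mmp19. The strand setting of the counting is not given in the sources used here, so reads of these genes cannot be told apart there; over all libraries Tmem198b held 3217 counts and Mmp19 held 46112.

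**Figure D4:**
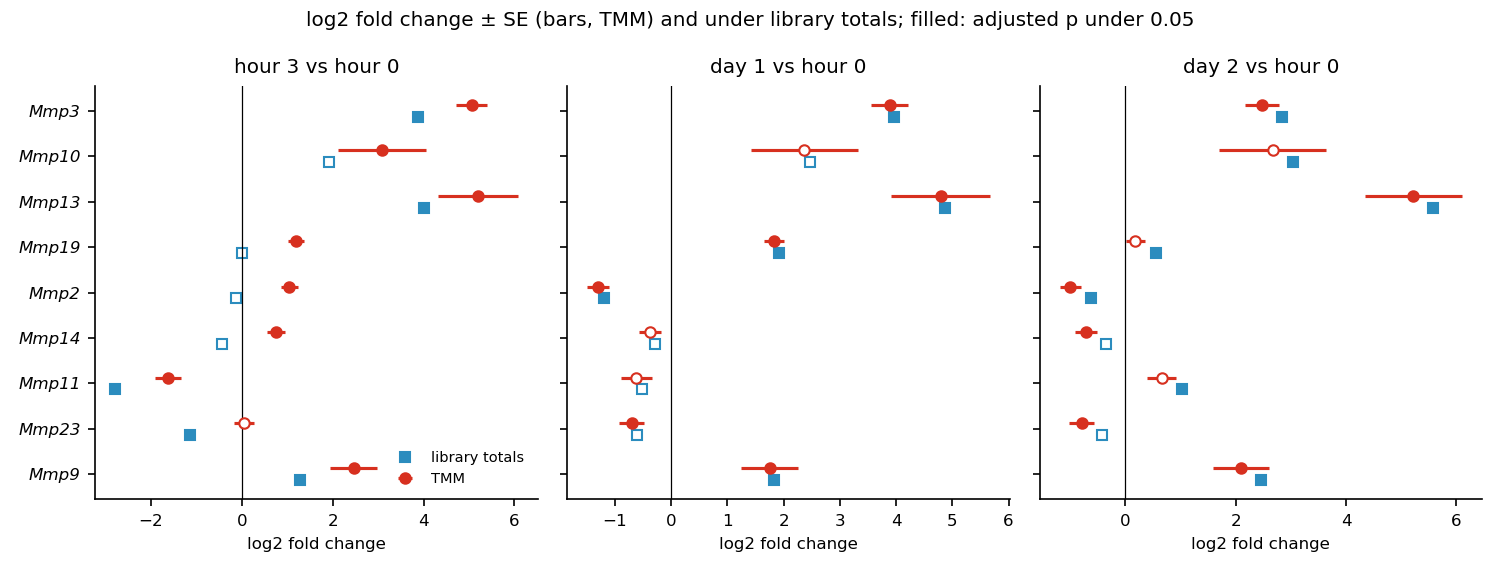
log2 fold changes (x axes) of 9 genes against hour 0 at hour 3, day 1 and day 2. Circles with bars are TMM fits ± SE, squares are fits by library totals, and filled symbols have an adjusted p under 0.05. At hour 3 Mmp2, Mmp14 and Mmp23 change sign under library totals (-0.12, -0.42 and -1.13), and Mmp3, Mmp13 and Mmp9 stay higher by both; Mmp8, which had 17 counts at hour 0, is left out.

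Mmp11 (stromelysin 3, ENSMUSG00000000901, chr10:75923222-75936496), which furin activates inside the cell, was the only one of the 10 to fall at hour 3 by TMM. It had 35.2, 23.3 and 30.4 CPM at hour 0, 6.00, 14.1 and 8.88 at hour 3, 19.2, 20.4 and 18.5 at day 1, and 45.1, 52.0 and 43.1 at day 2. At day 8 it had 50.7, 35.3 and 41.5 CPM and at day 23 it had 41.7, 35.7 and 15.4 CPM. All libraries of hour 3 lay below, and all of day 2 and day 8 above, those of hour 0. The fall at hour 3 was by 1.62 ± 0.29 on the log2 scale (adjusted p = 4.1e-05) and by 2.78 with library totals. It reached 1.27 ± 0.28 above day 1 at day 2 (0.00146). Within replicates 1 to 9 it was higher than at hour 3 by 2.14 ± 0.29 at day 8 (7.59e-07) and by 1.69 ± 0.29 at day 23 (2.95e-05). Against hour 0, day 1 was at -0.62 (0.108), day 2 at 0.66 (0.117), day 8 at 0.52 (0.118) and day 23 at 0.07 (0.856). Day 2 passed in 6 of 27 alternatives, both other scalings among them (0.00978 to 0.329). Chchd10 on the opposite strand shares 155 exon bases with Mmp11 and held 6453 counts over all libraries, against 5313 on Mmp11, and shared reads were not separated.

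Mmp23 (ENSMUSG00000029061, chr4:155650655-155653384) encodes a membrane-anchored member that is released from the cell when its own propeptide is cut. It had 21.6, 22.9 and 23.2 CPM at hour 0, 25.2, 20.04 and 24.7 CPM at hour 3, 16.3, 11.6 and 13.8 at day 1, and 11.1, 12.9 and 14.9 at day 2. At day 8 it had 14.1, 14.6 and 13.1 CPM and at day 23 it had 20.2, 16.3 and 14.7 CPM. Each of day 1, day 2, day 8 and day 23 lay below hour 0 without overlap. The differences were narrow. Mmp23 was lower than at hour 0 by 0.70 ± 0.22 at day 1 (adjusted p = 0.0219), by 0.79 ± 0.22 at day 2 (0.0138) and by 0.69 ± 0.22 at day 8 (0.0153). Day 23 was at -0.40 (0.158). The day 1 call ended with library totals (-0.60, 0.063), with no filter (-0.51, 0.243), with fewer libraries fitted (only those of the groups compared or of the set) and without replicate 2, 11, 12, 14 or 15 (0.00238 to 0.243 over 28 alternatives). At day 2 the call ended with DESeq2 size factors (-0.59, 0.0837), with library totals (-0.42, 0.264) and without replicate 2, 16 or 17 (0.00532 to 0.264 over 27 alternatives). At day 8 it ended with no filter and without replicate 1 or 3 (up to 0.184 over 27 alternatives). At hour 3 the gene was at 0.05 (0.86), and with library totals it was lower by 1.13 (0.000149). Day 8 was lower than hour 3 by 0.74 (0.0101), at 0.04 with library totals, and that call ended without replicate 3, 4 or 6.

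Ordered by RPKM, which allows genes to be compared, the uninfected libraries had Mmp2 first (325 ± 23.8, SD, n = 3), then Mmp3 (127 ± 18.1) and Mmp14 (103 ± 9.51), whose ranges overlapped. Mmp19 followed (46.3 ± 3.58), then Mmp11 (10.7) and Mmp23 (9.63), which overlapped each other. Mmp9, Mmp8, Mmp10 and Mmp13 were all under 1 and overlapped their neighbours. At hour 3 Mmp3 led (4246 ± 1207), followed without overlap by Mmp2 (672), Mmp14 (174) and Mmp19 (105). Day 1 kept Mmp3 first (1879 ± 959) and had Mmp19 (164) and Mmp2 (133) next, with overlapping ranges. At day 2 the order was Mmp3 (710.3 ± 252), Mmp2 (162), Mmp14 (62.8) and Mmp19 (52.4), with the last pair overlapping. By day 8 and day 23 Mmp2 led again (466 ± 17.4 and 401 ± 117), ahead of Mmp3 (134 and 117) and Mmp14 (122 and 81.0), which overlapped.

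The summed RPKM of the 10 genes was 623 ± 40.2 in uninfected libraries, 5223 ± 1140 by hour 3, 2276 ± 1035 on day 1 and 1021 ± 277 on day 2, followed by 774 ± 29.4 on day 8 and 650.3 ± 180.0 on day 23. Mmp3 made up 20.4% ± 2.06 of it in uninfected libraries. Its share was 80.6% ± 4.94 by hour 3, 80.6% ± 6.37 on day 1 and 68.6% ± 5.32 on day 2, and 17.3% ± 0.89 on day 8 and 18.0% ± 2.11 on day 23. Mmp2 made up 52.2%, 13.4%, 6.47%, 16.5%, 60.3% and 61.6% in the same order. These shares are free of library scaling, but the sum is not. TMM factors, by which library sizes are multiplied, were 0.516 to 0.547 at hour 3 and 1.14 to 1.24 at hour 0. The rise of the sum at hour 3 thus depends on the scaling in its size, and it crosses the sets of libraries. Shares and sums say nothing of protein or of enzyme activity, which were not measured. Replicate 14 had the lowest level of the 3 day 1 libraries in 7 of the 10 genes.

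**Figure D5:**
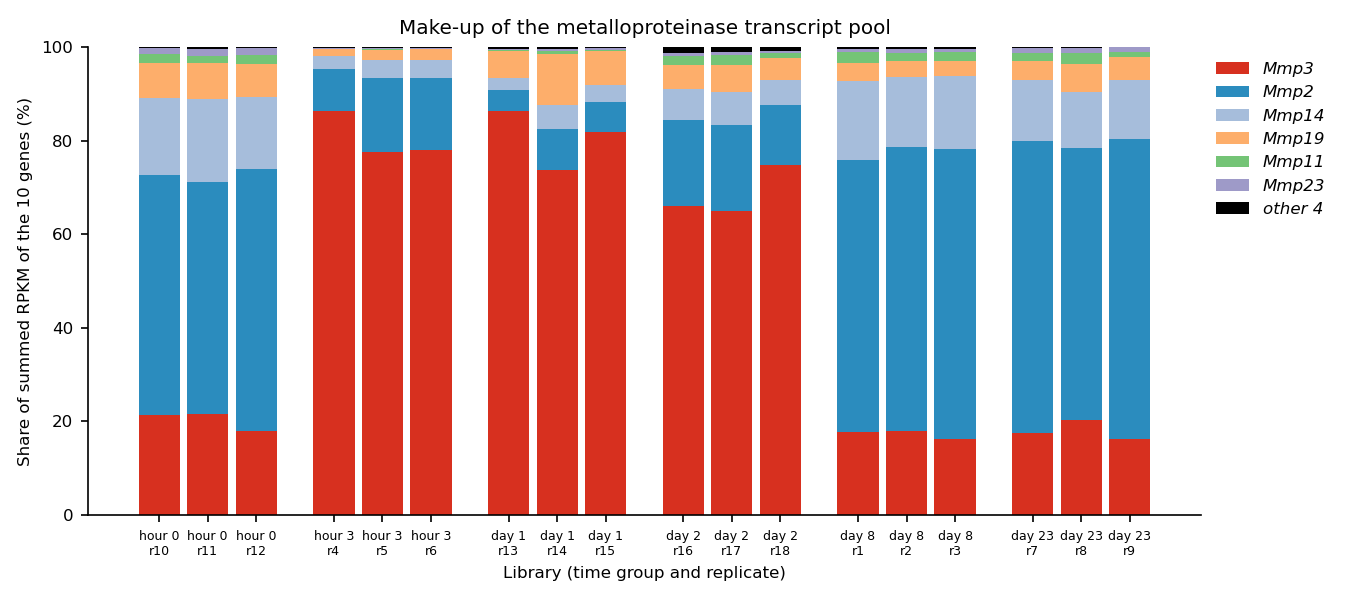
Make-up of the summed RPKM of the 10 genes in each library (y axis: percent of the sum; x axis: libraries by time group and replicate). Mmp3 takes 16.2% to 21.7% of the sum at hour 0, day 8 and day 23 and 65.1% to 86.3% at hour 3, day 1 and day 2; Mmp2 takes most of the remainder except at day 1, where Mmp19 takes a mean of 8.01% and Mmp2 6.47%.

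The inhibitors of these proteases moved as well. Of 10 genes of inhibitors and clearance, 8 rose (16.9% of all genes) and 2 fell (43.1%) at hour 3 against hour 0. At day 1 against hour 0, 3 rose (9.67%) and 5 fell (12.8%). Timp1, the inducible inhibitor, averaged 6.42 ± 1.36 CPM at hour 0, 702 ± 136 CPM at hour 3 and 845 ± 244 CPM at day 1, and its log2 fold change at day 1 was 7.03 ± 0.45 (adjusted p = 6.45e-13). Reck, a membrane-bound inhibitor, averaged 23.4 ± 2.58 CPM at day 1 and 117 ± 12.4 at hour 0 (fell by 2.33 ± 0.20, adjusted p = 1.59e-10). Tfpi2, a serine protease inhibitor of the matrix, rose by 8.45 ± 0.64 at hour 3 (7.35e-12), and Thbs1, a matricellular protein that binds metalloproteinases, by 7.46 ± 0.37 (2.18e-15).

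For activation and surface docking, 10 of 12 genes rose (16.9% of all genes) and 1 fell (43.1%) at hour 3. At day 1, 4 rose (9.67%) and 5 fell (12.8%). Plaur, the urokinase receptor, rose by 5.94 ± 0.52 at hour 3 (adjusted p = 1.7e-10). Cd44, a docking partner of metalloproteinases, rose by 4.77 ± 0.25 there (7.18e-15). Pcsk6, a furin-like convertase, averaged 5.36 ± 2.44 CPM at day 1 and 112 ± 26.1 at hour 0 and fell by 4.38 ± 0.37 (1.34e-10).

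Of 24 genes that induce metalloproteinases or encode AP-1 and related factors, 18 rose (16.9% of all genes) and 4 fell (43.1%) at hour 3. At day 1, 11 rose (9.67%) and 5 fell (12.8%). The cytokine genes Il6 (8.55 ± 0.62), Lif (8.32 ± 0.56) and Il1b (5.27 ± 0.44) rose at hour 3 (adjusted p = 3.97e-12, 8.24e-13 and 8.03e-11). Fosl1, an AP-1 subunit, rose by 5.95 ± 0.42 (1.91e-12). Of 20 matrix substrates, 17 rose (16.9% of all genes) and 1 fell (43.1%) at hour 3, whereas 2 rose (9.67%) and 15 fell (12.8%) at day 1. Tnc rose by 4.53 ± 0.48 (6.15e-09) and Vcan by 3.05 ± 0.20 (4.32e-13) at hour 3. The laminin gene Lamb1 (-3.67 ± 0.23, adjusted p = 4.4e-13) and Fbln1 (-2.11 ± 0.21, adjusted p = 2.97e-09) fell at day 1. Median log2 fold changes at hour 3 were 1.70, 2.85, 3.00 and 1.14 for these 4 lists in turn. The common shift of -1.15 under library totals is larger than the median of the matrix substrates, so the direction of that list at hour 3 depends on the scaling. Of the 13 other Mmp genes, 1 (Mmp12) rose at hour 3 (16.9% of all genes) and 6 (Mmp7, Mmp15, Mmp20, Mmp21, Mmp24 and Mmp28) fell (43.1%). All of these 6 but Mmp15 had only 29 to 85 counts over the hour 0 libraries, which belong to the other set. At day 1, 1 (Mmp12) rose (9.67%) and 2 (Mmp15 and Mmp16) fell (12.8%).

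Genes of like pattern were sought for Mmp3, Mmp2, Mmp10 and Mmp23 among 8834 or 8835 genes, by the smaller of a pair of Pearson correlations of log2 CPM, 1 over the 9 libraries of replicates 1 to 9 and 1 over those of replicates 10 to 18. Nearest to Mmp3 was Pdpn, the gene of the sorting marker gp38 (r = 0.996 and 0.991 over those 9 libraries each), then Tor3a (0.988 and 0.992) and Tpm4 (0.986 and 0.988). Mmp2 lay nearest to Ppt1 (0.93 and 0.931), Hexa (0.924 and 0.94) and Lrig1 (0.919 and 0.917). Mmp10, despite its low counts, came closest to Rsad2 (0.965 and 0.971), Sphk1 (0.963 and 0.961) and Daxx (0.964 and 0.958). For Mmp23 the nearest were Twsg1 (0.956 and 0.951), Cacna1g (0.947 and 0.944) and Lamc3 (0.94 and 0.941). The points share libraries, depth and scaling.

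Among markers of other cells, the 8 mural cell genes summed to 1131 to 1577 CPM at hour 0, 69.9 to 105 CPM at day 1 and 209 to 322 CPM at day 2, with none at 0. Of the 10 fibroblast markers, 8 rose at hour 3 (16.9% of all genes). Their median log2 fold change was 1.01 by TMM, less than the shift under library totals. At day 1, 1 rose (9.67%) and 8 fell (12.8%), and at day 2, 1 rose (5.12%) and 5 fell (9.63%). Of the 8 mural markers 7 fell at day 1 and 4 at day 2, beside the same shares of all genes. Of 10 epithelial markers, 7 fell at day 1 (12.8% of all genes) and 8 at day 2 (9.63%). Of 6 glial markers, 6 fell at day 1 (12.8% of all genes, list median -3.08). At day 2 the list had 2 rises (5.12% of all genes) and 4 genes that passed no test (list median 0.38). The falls of Mmp2 and Mmp23 thus came beside falls in all 4 lists at day 1, and in the fibroblast, mural and epithelial lists at day 2. Their part in the metalloproteinase values was not tested.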

How the data were processed

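Total RNA of sorted gp38+ salivary gland stromal cells was sequenced in 18 libraries. The deposited values are raw read counts per Ensembl gene, not normalized; per the submitters' processing notes the tools were FastQC, STAR, Subread and DESeq2 with the mm10 build, without versions, strand setting or treatment of multiply mapping reads. Names and exon lengths came from GENCODE M21. Of 55401 identifiers, 260 (0.0241% of counts) had no match.

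All 18 libraries were fitted together by edgeR 4.0.16 (R 4.3.3; quasi-likelihood test, filterByExpr with a minimum count of 10, TMM, Benjamini-Hochberg adjustment over 27525 genes within each of 9 contrasts and an F test over groups). The scripts were tested on simulated data. RPKM is TMM-scaled CPM per kb of merged exons. The SE of a log2 fold change is its absolute value divided by the square root of the F statistic of its test. It was not estimated separately and is rough for genes with few counts. Folds against a group at 0 use a floor of 3 counts over the group; such floors cover counting error only, and depth was 4398234 to 15234431 counts. Alternatives were DESeq2 size factors, library totals, no filter, 5 CPM in 3 libraries, DESeq2 1.42.0 (likelihood-ratio test over groups), limma-voom (limma 3.58.1), only the groups compared, only the 9 libraries of a set, leaving out each replicate, subtraction of a receptor-gene background, and, chosen after seeing the data, a fit without day 2.

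All 10 genes were named. From each list of pathway genes up to 4 were named, by the largest absolute log2 fold change at hour 3 or day 1 past the threshold at 10 CPM or more in the higher group, and 3 like genes for each of 4 members. A pathway gene that this rule names is not reported here. The genes, lists and tests were chosen with earlier results of these data known. Replicates are separate mice; whether libraries shared other steps is not given in the sources used here.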

Additional observations from a re-analysis of the deposited data

How the results depend on the processing

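Over 90 results for single genes (10 genes in 9 contrasts) and their alternatives, 2300 of 2435 values stayed on their side of the threshold. Of the rest, 93 lost the threshold and 35 gained it. A further 7 were reversals, which turned sign where the main fit or the alternative passed the threshold. A change of sign between fits that both failed the threshold counts among the 2300. Mmp3 at day 8 against hour 0, for example, ran from -0.33 to 0.30. By these rules 54 results had no change in any alternative run. All 7 reversals came with library totals: at hour 3 against hour 0 Mmp2 (-0.12), Mmp14 (-0.42) and Mmp23 (-1.13), at day 8 against hour 3 Mmp2 (0.25), Mmp14 (0.27) and Mmp23 (0.0379), and at day 23 against hour 3 Mmp2 (0.0016), as the common shift of the scale makes them. With library totals, 5 of the 10 genes were called at hour 3 (3 higher, 2 lower), 3 at day 8 and 5 at day 23 against hour 0. With no filter, 1 was called at day 23 against hour 0 and 2 at day 23 against day 8. With the filter of 5 CPM in 3 libraries, where fewer genes are tested, genes called numbered 9329 at hour 3, 4851 at day 8 (3 of the 10) and 3312 at day 23 (1 of the 10) against hour 0, and 12685 over the 6 groups. DESeq2 called 2267 genes (2 of the 10) at day 23 against day 8, and limma-voom 2 of the 10 there, 6427 genes at day 2 against hour 0 and 13496 at day 2 against day 1. With only the groups compared, where fewer samples are fitted, there were 7182 genes at day 8, 1997 at day 23 (1 of the 10) against hour 0, and 708 at day 23 against day 8 (0 of the 10). After subtraction of background 5185 genes, 1 of the 10 among them, were called at day 23 against hour 0. Without the day 2 libraries, an alternative chosen after seeing the data, there were 6783 genes at day 8 (3 of the 10), 5123 at day 23, 15324 over the remaining groups and 0 of the 10 at day 23 against day 8.

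Leaving out each replicate in turn, the genes called ranged over 12278 to 17920 at hour 3, 4811 to 6789 at day 1, 2935 to 4509 at day 2, 7204 to 14126 at day 8 and 4061 to 10426 at day 23 against hour 0. They ranged over 3490 to 7745 for day 2 against day 1, 593 to 1777 for day 23 against day 8 and 22847 to 26596 over the 6 groups. Against hour 3 they ranged over 7120 to 8744 at day 8 and 6832 to 8438 at day 23. Of the 10 genes, 8 to 8 were called at hour 3, 4 to 6 at day 1, 5 to 6 at day 2, 3 to 5 at day 8 and 0 to 3 at day 23 against hour 0. There were 3 to 4 for day 2 against day 1 and 0 to 2 for day 23 against day 8. Against hour 3, 6 to 9 were called at day 8 and 9 to 9 at day 23. No paired analysis was possible because every library has a replicate number and a mouse of its own. Where no reason is given here, the cause was not tested. Low counts limit Mmp8, Mmp10 and the hour 0 level of Mmp13 most, at 8 to 17 counts per group at hour 0. Per kb of exon these genes had 0 to 3.71 counts in the hour 0 libraries, where receptor genes had 1.01 to 1.25.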
